A study of Homo sapiens with 42 samples.

Results

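The messages of 9 genes were followed, 6 phosphatidylinositol 3-kinase-related kinases (PIKKs: ATM, ATR, PRKDC, MTOR, SMG1 and TRRAP) and 3 subunits of the chaperone that matures them (TELO2, TTI1 and TTI2). Members were chosen by gene name, with earlier results of these data known but no threshold on measured values, and each name matched the table, so 9 of 57353 names were taken. All 9 passed the filter on low counts and were among the 12939 genes tested. PRKDC encodes the catalytic subunit of DNA-PK. TRRAP has the fold of the family but no kinase activity.

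PIKKs are very large proteins built from a long helical solenoid and a C-terminal kinase domain that resembles lipid kinases. ATM and DNA-PK respond to DNA double-strand breaks, ATR to stalled replication forks, and mTOR, as the kinase of mTORC1 and mTORC2, couples growth factors and amino acids to protein synthesis. SMG1 phosphorylates UPF1 in nonsense-mediated mRNA decay, and TRRAP is a scaffold of the histone acetyltransferase complexes SAGA and NuA4. Newly made PIKKs are folded and assembled by the TTT complex (TELO2, TTI1 and TTI2) together with HSP90 and the R2TP complex. In acute myeloid leukemia, signals of mutant FLT3 reach mTORC1 through PI3K and AKT.

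MOLM-13, a human acute myeloid leukemia line with an internal tandem duplication in FLT3, was grown in RPMI or in hBMSC-CM and treated for 12 h. hBMSC-CM combined equal parts of fresh RPMI and medium in which HS-5, a stromal line from human bone marrow, had grown. Quizartinib (AC220), a FLT3 inhibitor, was given at 3 nM, and everolimus, an mTORC1 inhibitor, at 10 nM. The 7 conditions were vehicle (DMSO), quizartinib and both drugs (combo) in RPMI, and vehicle, quizartinib, everolimus and combo in hBMSC-CM. Single-agent everolimus in RPMI is not analysed here. Poly(A) RNA was sequenced from whole cells (input) and from heavy polysomes, the part of a sucrose gradient in which messages carry several ribosomes, with 3 libraries for each condition and fraction, 42 in all. All libraries came from 1 cell line, labelled as wild type in genotype, and nothing states that replicates are more than separate cultures of it.

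Library totals were 19439370 to 38786394 counts. The 8 myeloid markers summed to 1819 to 4707 CPM per library and none of them was at 0 in any library. Of the 10 stromal markers, COL3A1, LUM and POSTN were at 0 in all 42 libraries and the list summed to 0.539 to 41.4 CPM. The 4 lymphocyte markers summed to at most 4.05 CPM and the 3 erythroid markers to at most 0.218 CPM. No spike-in was used, so levels (CPM, after TMM scaling) and log2 differences are relative to the other messages of a library, and fewer cells of a kind and less RNA per cell cannot be told apart. A trend on transcript length separated libraries. In the polysome libraries numbered 2, the fitted log2 deviation of a 13000-base transcript from its mean over all libraries was -0.47 for RPMI quizartinib, -0.32 for RPMI combo, -0.75 for hBMSC-CM quizartinib and -0.61 for hBMSC-CM combo, below numbers 1 and 3 of the same groups (-0.43 to 0.19). Under vehicle number 2 had -0.99 in RPMI, where the others had -0.95 and -0.86, and -0.94 in hBMSC-CM, where they had -0.85 and -0.66. Results on polysomes are therefore also given without the libraries numbered 2.

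The kinase messages have some of the longest coding sequences of the cell. In the GENCODE v44 annotation of GRCh38, ATM (ENSG00000149311, chromosome 11, 108223044 to 108369102, plus strand) has 3056 codons in 63 exons. ATR (ENSG00000175054, chromosome 3, 142449007 to 142578733, minus strand) has 2644 codons in 47 exons. PRKDC (ENSG00000253729, chromosome 8, 47773111 to 47960178, minus strand) is the longest of the family, with 4128 codons in 86 exons. MTOR (ENSG00000198793, chromosome 1, 11106535 to 11262556, minus strand) is the shortest, with 2549 codons in 58 exons. SMG1 (ENSG00000157106, chromosome 16, 18804860 to 18926408, minus strand) has 3661 codons in 63 exons and the longest 3′ UTR of the members, 4709 bases. TRRAP (ENSG00000196367, chromosome 7, 98877933 to 99050831, plus strand) has 3873 codons in 73 exons. These lengths lay at the 98.8th to 99.7th percentile of the 10811 tested genes with an annotated coding sequence, of which 130 had at least as many codons as MTOR. The chaperones are shorter, at the 80.5th (TELO2), 88.8th (TTI1) and 55.6th (TTI2) percentile. TELO2 (ENSG00000100726, chromosome 16, 1493344 to 1510457, plus strand) has 837 codons, TTI1 (ENSG00000101407, chromosome 20, 37983007 to 38033461, minus strand) 1089 and TTI2 (ENSG00000129696, chromosome 8, 33473386 to 33513185, minus strand) 508.

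Coding GC content split the kinases. It was 38.8% in ATM, 40.0% in ATR, 44.3% in SMG1 and 45.9% in PRKDC, against 53.2% in MTOR and 53.1% in TRRAP. Among the chaperones TELO2 was the richest in GC with 65.9%, above TTI2 (51.1%) and TTI1 (48.4%).

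Some counts can be too high or too low where genes share bases, since strand use and the handling of shared reads in the counting were not stated. TTI2 shares 932 exon bases with MAK16 on the opposite strand, ATR shares 2048 with the pseudogene EIF2AK1P1, TRRAP 735 with SMURF1 and ATM 124 with C11orf65. SMG1 has 7 near-identical pseudogene copies, which held 10.49% to 30.5% of the summed SMG1 and pseudogene counts in input and 15.5% to 46.6% in polysome libraries.

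Input levels spanned more than an order of magnitude within the family. Per kilobase of transcript, the scale on which genes of different length can be compared, TELO2 was highest with 40.9 ± 8.28 CPM per kb under RPMI vehicle (SD, n = 3, as in all means here), followed by PRKDC with 31.6 ± 4.49 CPM per kb. TTI1 had 13.1 ± 0.4997 CPM per kb and MTOR 9.52 ± 0.701. TRRAP (7.89 ± 0.794 CPM per kb) and TTI2 (7.83 ± 1.40) did not differ beyond their spread. ATM (3.94 ± 0.198 CPM per kb) and SMG1 (3.61 ± 0.687) were likewise not separated, and ATR was lowest with 1.83 ± 0.245 CPM per kb. Over all conditions ATR stayed below every other member in 21 of 21 input libraries, and TELO2 exceeded PRKDC in 20 of 21. ATM exceeded SMG1 in 13 of 21 and TTI2 exceeded TRRAP in 11 of 21, so these neighbours in the order were not separated.

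**Figure D1:**
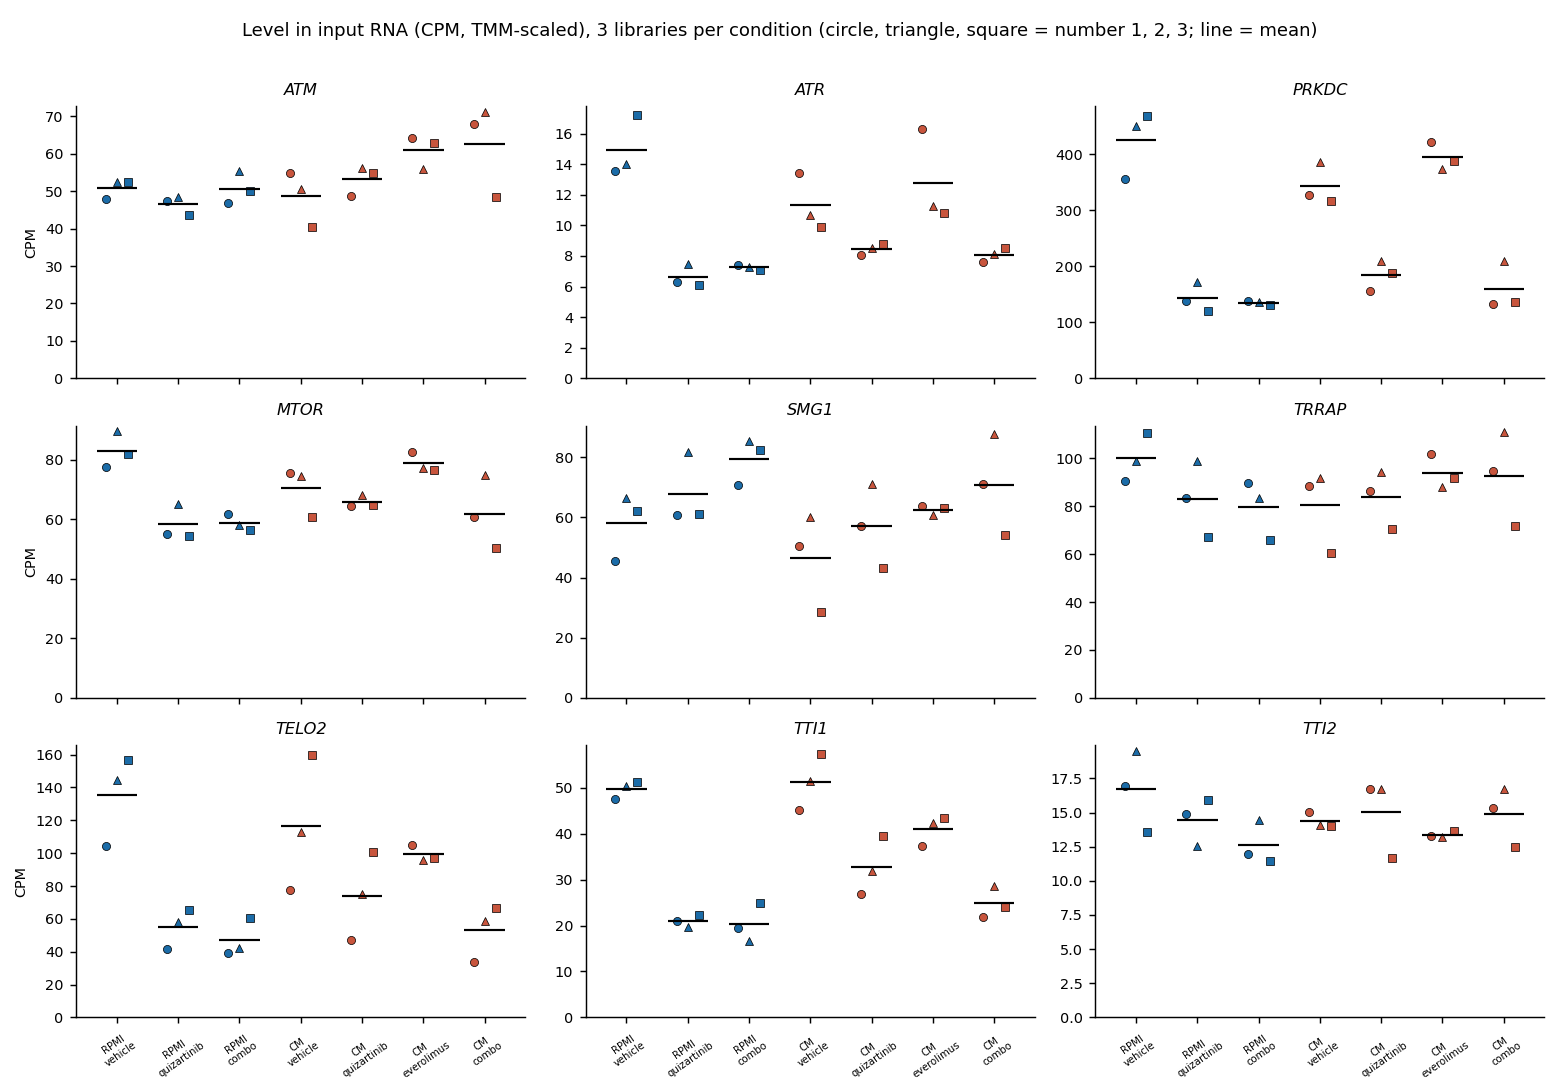
Input level of each gene in CPM (y axes start at 0 and differ between panels) in the 3 libraries of each of the 7 conditions. Circles, triangles and squares are libraries 1, 2 and 3, lines are means, blue is RPMI and red is hBMSC-CM (CM). PRKDC, TELO2 and TTI1 in RPMI under quizartinib and combo lie below every RPMI vehicle library, while ATM and TTI2 overlap with vehicle under both treatments. TRRAP overlaps under quizartinib, and under combo its highest library, 89.7, is just below the lowest vehicle library, 90.6.

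FLT3 inhibition was first compared with vehicle in RPMI. PRKDC, TELO2 and TTI1 fell and no member rose: 3 of 9 were called lower (quasi-likelihood test of edgeR, p adjusted over all genes by Benjamini-Hochberg, under 0.05), where 18.0% of all genes tested were called lower. The median log2 difference was -0.51 over the 9 members and 0.08 over all genes. Below, some members are said to have groups without overlap in input. The share of all genes without overlap is not given, so this does not set a member apart.

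PRKDC, the DNA end-joining kinase, had 356, 450.5 and 468 CPM in the 3 vehicle libraries and 137, 172 and 119 CPM under quizartinib. Its lowest vehicle library was thus above the highest quizartinib library. It fell by 1.57 on the log2 scale (SE 0.27, 2.97-fold, edgeR adjusted p 2.36e-05).

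TELO2, the TTT subunit that binds the PIKKs, had 104, 145 and 157 CPM under vehicle and 41.5, 58.3 and 65.2 CPM under quizartinib. The groups did not overlap, and it fell by 1.30 on the log2 scale (SE 0.29, 2.46-fold, edgeR adjusted p 5.55e-04). TTI1, the scaffold of the same complex, had 47.6, 50.3 and 51.3 CPM under vehicle and 20.95, 19.7 and 22.4 CPM under quizartinib. The groups did not overlap. It fell by 1.24 (SE 0.21, 2.37-fold, edgeR adjusted p 1.76e-05). The third subunit, TTI2, was not called, with 16.9, 19.5 and 13.6 CPM under vehicle and 14.9, 12.5 and 15.9 CPM under quizartinib, overlapping groups and a log2 difference of -0.21 (95% interval -0.91 to 0.50, edgeR adjusted p 0.683). TTI2 shares 932 exon bases with MAK16, a ribosome biogenesis gene which itself fell by 2.28 on the log2 scale. How reads in these bases were counted was not stated.

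ATR, the replication stress kinase, had 13.6, 14.04 and 17.2 CPM under vehicle and 6.31, 7.49 and 6.11 CPM under quizartinib. These groups did not overlap either, and the log2 difference of -1.17 (SE 0.50) missed the threshold with an edgeR adjusted p of 0.0667. It passed under several other settings, among them limma voom (adjusted p 0.00394) and the input libraries of these 2 groups alone (edgeR adjusted p 5.96e-04), and the adjusted p ranged from 5.96e-04 to 0.238 over all alternatives. MTOR had 77.5, 89.6 and 81.9 CPM under vehicle and 55.1, 65.3 and 54.6 CPM under quizartinib, with no overlap and a log2 difference of -0.51 (95% interval -1.22 to 0.21, edgeR adjusted p 0.279). Fitted on the input libraries of these 2 groups alone, it was called (edgeR adjusted p 0.00697).

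The remaining kinases had overlapping groups. ATM went from 50.9 ± 2.56 to 46.5 ± 2.57 CPM, a log2 difference of -0.13 with a 95% interval from -0.83 to 0.57 (edgeR adjusted p 0.803). TRRAP (99.98 ± 10.1 against 83.1 ± 16.0 CPM) differed by -0.27 on the log2 scale, with an edgeR adjusted p of 0.548. SMG1 was the one member with a higher mean under quizartinib, 67.9 ± 11.9 against 58.1 ± 11.04 CPM, with an edgeR adjusted p of 0.710.

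The 250 bases upstream of the annotated starts of TELO2 and TTI1 (RefSeq, GRCh38.p14) are shown because both subunits fell together, with the E-box CACGTG, the site read by MYC and MAX dimers, in capitals. The motif was chosen after the values were seen, reads the same on both strands and occurs in 6.34% of 35116 RefSeq windows of this length.
TELO2, chr16:1493110-1493359, plus strand: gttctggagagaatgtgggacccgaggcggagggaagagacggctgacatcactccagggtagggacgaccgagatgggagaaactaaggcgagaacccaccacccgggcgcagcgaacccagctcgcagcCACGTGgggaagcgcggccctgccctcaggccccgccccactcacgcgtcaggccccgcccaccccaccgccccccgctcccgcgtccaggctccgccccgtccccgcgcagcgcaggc
TTI1, chr20:38033457-38033706, minus strand: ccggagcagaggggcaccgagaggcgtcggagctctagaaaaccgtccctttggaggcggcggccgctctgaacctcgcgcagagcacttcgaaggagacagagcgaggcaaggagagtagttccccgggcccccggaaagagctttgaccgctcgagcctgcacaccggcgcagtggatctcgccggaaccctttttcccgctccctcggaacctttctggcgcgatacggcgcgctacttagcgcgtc
TELO2 holds 1 match, 119 bases before the start, and TTI1 none, which says only that these letters are absent from this window.

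Head-to-head neighbours were listed by position. PRKDC starts 7 bases from MCM4, a replicative helicase gene on the other strand, and MCM4 fell by 3.10 on the log2 scale in the same comparison (SE 0.22, edgeR adjusted p 5.14e-13). TTI1 starts 264 bases from RPRD1B, whose log2 difference was -0.37 (edgeR adjusted p 0.203). ATM starts 406 bases from NPAT, with a log2 difference of -0.39 (edgeR adjusted p 0.384). None of these pairs shares exon bases.

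The same drug comparison was made in hBMSC-CM. PRKDC and TTI1 fell, 2 of 9 members, against 6.84% of all genes called lower, and no member rose. PRKDC had 327, 386 and 316 CPM under vehicle and 157, 209.9 and 187 CPM under quizartinib, without overlap, and fell by 0.89 on the log2 scale (SE 0.27, 1.86-fold, edgeR adjusted p 0.0258). TTI1 had 45.2, 51.3 and 57.2 CPM under vehicle and 26.8, 31.9 and 39.5 CPM under quizartinib and fell by 0.65 (SE 0.21, 1.57-fold, edgeR adjusted p 0.0382). Neither call held without every culture: the adjusted p of PRKDC was 0.0786 without hBMSC-CM vehicle replicate 2 and 0.0957 without hBMSC-CM quizartinib replicate 1, and that of TTI1 was 0.0581, 0.145, 0.139 and 0.114 without vehicle replicate 2 or 3 or quizartinib replicate 1 or 2.

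TELO2 differed by -0.65 on the log2 scale in hBMSC-CM, the same size as TTI1, but its libraries spread more (77.5, 113 and 159 CPM against 47.2, 74.9 and 100.5 CPM), the groups overlapped and the edgeR adjusted p was 0.130. With the replicate number as a block within each fraction it was called (-0.66, edgeR adjusted p 0.00416). ATR was at 11.3 ± 1.86 CPM under vehicle and 8.45 ± 0.340 CPM under quizartinib (edgeR adjusted p 0.632). MTOR (70.4 ± 8.20 and 65.8 ± 1.94 CPM) had a log2 difference of -0.10 with an edgeR adjusted p of 0.893.

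**Figure D2:**
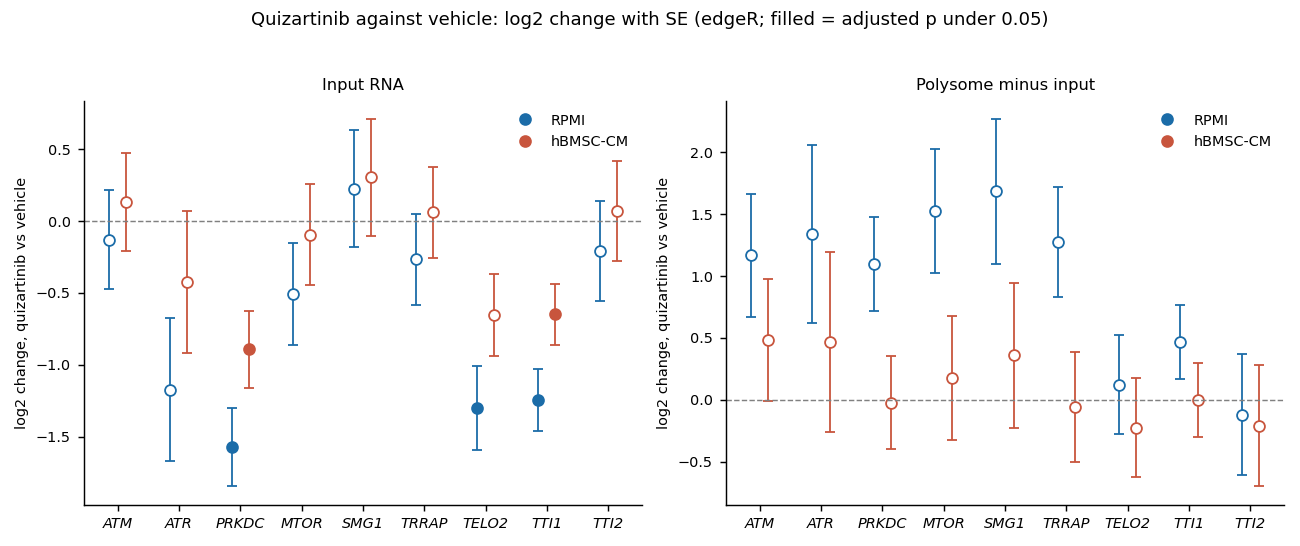
Log2 change between quizartinib and vehicle (y axis, with SE) for each gene in RPMI (blue) and hBMSC-CM (red), in input RNA (left) and in polysome minus input (right). Filled points passed an adjusted p of 0.05: PRKDC, TELO2 and TTI1 in RPMI and PRKDC and TTI1 in hBMSC-CM in input, and none in polysome minus input.

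Whether the drug effect on input differed between media was tested directly. The difference of the log2 changes, hBMSC-CM minus RPMI, was positive for all 9 genes (0.08 to 0.75) but none was called, against 1.96% of all genes. Its median over all genes was -0.04. The 9 genes were measured in the same libraries and are not 9 separate observations. It was 0.68 for PRKDC (SE 0.38, 95% interval -0.09 to 1.45), 0.65 for TELO2 (SE 0.40) and 0.60 for TTI1 (SE 0.30, 95% interval -0.01 to 1.198), with edgeR adjusted p values of 0.603, 0.695 and 0.508. These comparisons share libraries with the 2 drug comparisons above and add no independent evidence.

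Medium alone did not move any member past the threshold. Without drug 0 of 9 members were called between hBMSC-CM and RPMI, where 1.51% of all genes were. Under quizartinib 0 of 9 were called, where 8.16% of all genes were. TTI1 came nearest under quizartinib, with 26.8, 31.9 and 39.5 CPM in hBMSC-CM above 20.95, 19.7 and 22.4 CPM in RPMI, a log2 difference of 0.64 (SE 0.21) and an edgeR adjusted p of 0.0547. With the replicate number as a block this p was 0.0148, with DESeq2 it was 0.0266 and without hBMSC-CM quizartinib replicate 1 it was 0.0210.

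Everolimus comparisons called no member. In hBMSC-CM everolimus alone against vehicle called 0 of 9 members and 0.41% of all genes, combo against quizartinib called 0 of 9 and 0.24%, and in RPMI combo against quizartinib called 0 of 9 and 0.00773%. MTOR, the target of the drug complex, was at 78.8 ± 3.28 CPM under everolimus and 70.4 ± 8.20 CPM under vehicle in hBMSC-CM, a log2 difference of 0.16 (95% interval -0.55 to 0.88). Its input level over all 21 libraries ran from 50.2 to 89.6 CPM. In a test for any difference among the 7 conditions in input, PRKDC (edgeR adjusted p 3.20e-07), TTI1 (4.36e-07) and TELO2 (3.92e-05) passed, 3 of 9 members against 39.7% of all genes.

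Heavy polysomes were then compared with input within each condition, which asks what share of polysomal messages a gene takes relative to its share in the cell. The kinases were depleted and TELO2 and TTI2 enriched. In RPMI vehicle all 6 kinases were called lower in polysomes, where 33.9% of all genes were lower, and TELO2 and TTI2 were called higher, where 31.5% were higher. Scaling by library size alone moved the median of all genes in this comparison from -0.06 to -0.61 on the log2 scale and the split from 4070 higher and 4387 lower to 2266 and 5978. Relative to it the chaperones were not called higher (TELO2 0.68, edgeR adjusted p 0.0532, and TTI2 0.66, 0.0687) and TTI1 was called lower (-0.73, 0.0126).

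ATM showed the lowest median over the 21 pairs of same-numbered libraries. In RPMI vehicle it had 48.0, 52.4 and 52.4 CPM in input and 5.57, 7.504 and 6.91 CPM in polysomes, a log2 difference of -2.93 (SE 0.37, 7.63-fold lower, edgeR adjusted p 8.27e-08). SMG1 had 45.5, 66.4 and 62.2 CPM in input and 5.86, 7.47 and 6.29 CPM in polysomes, with a log2 difference of -3.15 (SE 0.45, 8.86-fold lower, edgeR adjusted p 4.46e-07). ATR, with 13.6, 14.04 and 17.2 CPM against 2.48, 1.57 and 2.77 CPM, differed by -2.72 (SE 0.54, edgeR adjusted p 5.28e-05). ATR rested on 43 to 63 counts per polysome library in this group.

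With the counts of its pseudogenes added, SMG1 differed by -2.77 in RPMI vehicle and kept its call in each of the 7 conditions.

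The other 3 kinases were depleted to a lesser degree. MTOR had 77.5, 89.6 and 81.9 CPM in input and 27.6, 20.6 and 15.8 CPM in polysomes under RPMI vehicle, a log2 difference of -1.96 (SE 0.37, edgeR adjusted p 2.52e-05). PRKDC, with 101, 183 and 121 CPM in polysomes, differed by -1.65 (SE 0.27, edgeR adjusted p 4.87e-06), and TRRAP, with 28.4, 27.1 and 41.8 CPM, by -1.62 (SE 0.32, edgeR adjusted p 5.85e-05). In every one of the 21 pairs of same-numbered libraries ATM, ATR and SMG1 each lay below PRKDC, MTOR and TRRAP. Within these trios the order was not fixed: ATM was below SMG1 in 15 of 21 pairs and ATR below SMG1 in 9, and PRKDC was below MTOR in 11.

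In the main fit, with TMM scaling, no chaperone message was called lower in polysomes. TELO2 had 473, 258 and 238 CPM in polysomes against 104, 145 and 157 CPM in input under RPMI vehicle, a log2 difference of 1.25 (SE 0.29, edgeR adjusted p 3.36e-04), and it was higher in polysomes in 21 of 21 pairs. Without RPMI vehicle replicate 1 the log2 difference was 0.72 (edgeR adjusted p 0.0632). TTI2, the smallest message, had 45.5, 37.7 and 34.4 CPM in polysomes against 16.9, 19.5 and 13.6 CPM in input, a log2 difference of 1.23 (SE 0.35, edgeR adjusted p 2.76e-03). Its overlap partner MAK16 differed by -0.73. TTI1 had nearly the same level in both fractions, 44.8, 41.6 and 45.3 CPM in polysomes and 47.6, 50.3 and 51.3 CPM in input, with a log2 difference of -0.18 (95% interval -0.61 to 0.25).

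**Figure D3:**
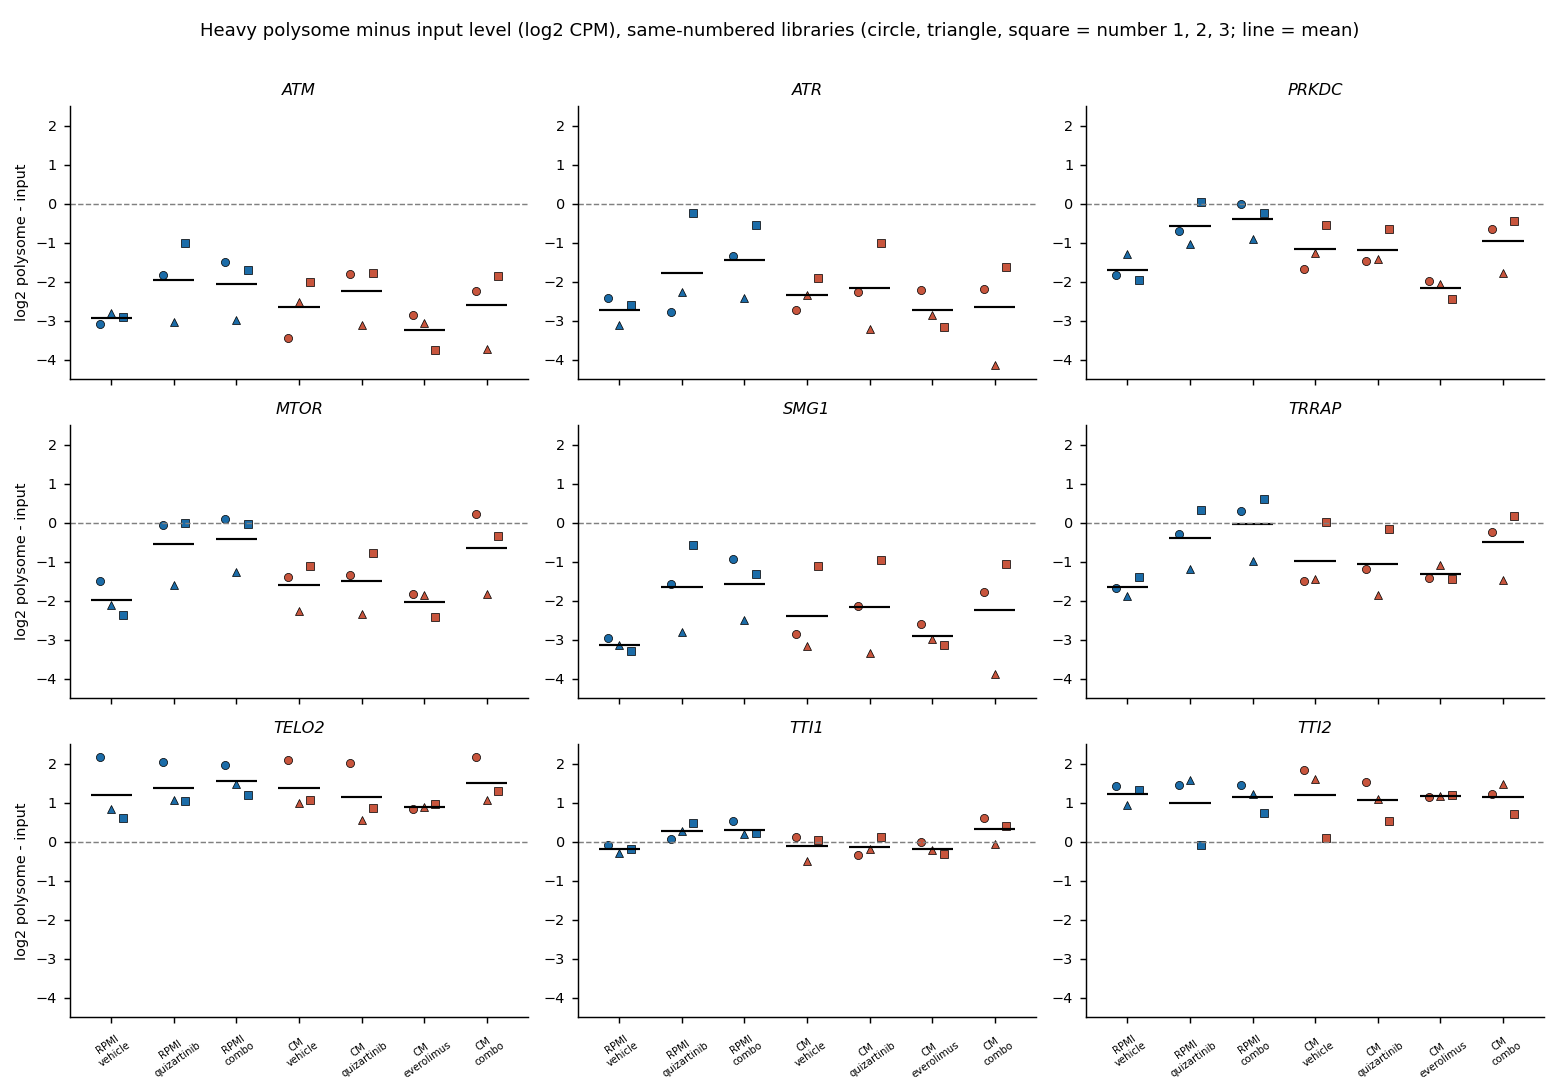
Log2 CPM in heavy polysomes minus log2 CPM in the input library of the same number (y axis, same range in all panels) for the 7 conditions. Circles, triangles and squares are numbers 1, 2 and 3, lines are means, blue is RPMI and red is hBMSC-CM (CM). ATM, ATR and SMG1 lie below 0 in all 21 pairs and TELO2 above 0 in all 21. Triangles are the lowest points of ATM, MTOR, SMG1 and TRRAP under quizartinib and combo in both media.

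Across the conditions ATM, ATR and SMG1 were called lower in polysomes in 7 of 7 and TELO2 and TTI2 higher in 7 of 7, while TTI1 was never called. PRKDC, MTOR and TRRAP varied. In RPMI quizartinib none of them passed: PRKDC differed by -0.56 (edgeR adjusted p 0.0746), MTOR by -0.44 (0.289) and TRRAP by -0.35 (0.350). PRKDC was called lower here without RPMI quizartinib replicate 3 (-0.98, edgeR adjusted p 0.0123), with a stricter filter of at least 10 CPM on average (-0.75, 0.0207) and with scaling by library size alone (-0.85, 0.0197). That left 3 members lower (26.7% of all genes lower) and 2 higher (31.2% higher). RPMI combo gave the same count, 3 lower (27.6%) and 2 higher (31.7%), with values of -0.33 for PRKDC, -0.29 for MTOR and 0.08 for TRRAP.

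In hBMSC-CM all 6 kinases were lower under vehicle (34.0% of all genes lower, 29.6% higher), quizartinib (28.9% lower, 29.7% higher) and everolimus (30.7% lower, 27.9% higher), each with TELO2 and TTI2 higher. The log2 difference of MTOR was -1.54, -1.36 and -2.01 in these 3 conditions. Under hBMSC-CM combo 4 kinases were lower (30.1%) and 2 chaperones higher (32.9%), and MTOR (-0.50, edgeR adjusted p 0.217) and TRRAP (-0.46, 0.206) missed the threshold. Scaling by library size alone, which moved the median of all genes here from 0.05 to -0.37, called both lower (MTOR -0.89, edgeR adjusted p 0.0484, and TRRAP -0.85, 0.0438).

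Over all comparisons, leaving out the libraries numbered 1 ended 15 calls of single members, number 2 also 15, and number 3 ended 3. Leaving out the libraries numbered 2 changed several of the polysome calls above. Without them 3 members were called in RPMI quizartinib (ATM -1.37, SMG1 -0.98 and TELO2 1.52), 3 in RPMI combo, 4 in hBMSC-CM combo and 6 in the other hBMSC-CM groups, against 8 in RPMI vehicle. Calls over all genes fell as well, from 57.9% to 41.6% in RPMI quizartinib, from 7668 to 5688 of 12939 genes in RPMI combo, from 63.0% to 48.4% in hBMSC-CM combo and from 65.4% to 53.7% in RPMI vehicle. In hBMSC-CM they fell from 63.6% to 50.5% under vehicle, from 58.7% to 41.5% under quizartinib and from 58.6% to 47.1% under everolimus. ATM and SMG1 were still lower in all 7 conditions. MTOR then sat near 0 in RPMI quizartinib (-0.03), RPMI combo (0.03) and hBMSC-CM combo (edgeR adjusted p 0.990) and at -1.88 in RPMI vehicle. Single cultures also mattered under quizartinib and combo in RPMI, where the call of ATR was lost without replicate 1 or 2 of either group (edgeR adjusted p 0.109 to 0.218) and that of TTI2 without RPMI quizartinib replicate 1 (0.0952) or 2 (0.104). The call of SMG1 was lost without RPMI quizartinib replicate 2 (0.0984) or RPMI combo replicate 2 (0.0605). In hBMSC-CM the call of TRRAP was lost without replicate 1 or 2 of vehicle (0.143 in each case) or of quizartinib (0.0667 and 0.171), that of PRKDC without combo replicate 2 (0.149), and that of TELO2 without quizartinib replicate 1 (0.0698) or everolimus replicate 3 (0.0522). TTI2 lost its call without hBMSC-CM quizartinib replicate 1 (0.0774), and MTOR gained one without hBMSC-CM combo replicate 1 (-1.11, 0.0238).

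Whether a condition changed the polysome level beyond its change in input was tested as an interaction. For quizartinib in RPMI all 6 kinases had positive values, 1.17 for ATM (SE 0.49), 1.34 for ATR (SE 0.72), 1.10 for PRKDC (SE 0.38), 1.52 for MTOR (SE 0.50), 1.68 for SMG1 (SE 0.59) and 1.28 for TRRAP (SE 0.45). None passed the threshold (edgeR adjusted p 0.124 to 0.378), where 1.55% of all genes did. Those were 36 genes with a positive and 165 with a negative shift, and 78 and 91 when scaled by library size alone. The unadjusted p was under 0.05 for 5 of the 9 members and 2014 of the 12939 genes.

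MTOR shows what the values look like. Its polysome minus input difference was -1.49, -2.12 and -2.37 in the RPMI vehicle pairs and -0.06, -1.60 and 0.00 in the quizartinib pairs, so pair 2 lay within the vehicle range and the other 2 above it. SMG1 (-2.95, -3.14 and -3.29 against -1.56, -2.79 and -0.56) and TRRAP (-1.67, -1.87 and -1.40 against -0.29, -1.18 and 0.33) did not overlap between the groups. PRKDC did not overlap either (-1.82, -1.30 and -1.95 against -0.70, -1.04 and 0.05). ATM (-3.09, -2.79 and -2.91 against -1.82, -3.02 and -1.01) and ATR (-2.43, -3.11 and -2.61 against -2.79, -2.27 and -0.24) overlapped. The share of all genes without overlap is not given here. The chaperones had smaller values than the kinases in this test, 0.12 for TELO2, 0.47 for TTI1 and -0.12 for TTI2. A block for the replicate number within each fraction called PRKDC, MTOR, SMG1 and TRRAP (edgeR adjusted p 0.0309, 7.99e-03, 0.0217 and 6.09e-03), and a fit without the filter on low counts called MTOR and SMG1. That block called 1513 of the 12939 genes, the most of any setting, against 201 in the main fit. The count over all genes without the filter is not given here. Without the libraries numbered 2 the values were larger (1.53 to 2.17 for the kinases) and still uncalled (edgeR adjusted p 0.0591 to 0.409).

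None of the other 7 interaction tests called a member, and none called any gene (0.0% of 12939 in each). These were quizartinib in hBMSC-CM, medium without drug, medium under quizartinib, combo against quizartinib in hBMSC-CM and in RPMI, everolimus in hBMSC-CM, and the difference of the quizartinib shift between media. At an unadjusted p under 0.05 they counted 288, 211, 450, 273, 93, 573 and 624 genes, and DESeq2 called 0, 1, 20, 0, 1, 7 and 13 genes. In hBMSC-CM quizartinib shifted the kinases by -0.06 (TRRAP) to 0.48 (ATM). The difference of that shift between media was -0.68 for ATM and -1.35 for MTOR, with edgeR adjusted p values that round to 1. A test for any difference among the 7 conditions passed for PRKDC alone (edgeR adjusted p 0.0388), 1 of 9 members against 1.87% of all genes, and the call was lost in 12 of the 21 fits that leave out 1 culture (edgeR adjusted p 0.0545 to 0.226). These were replicates 1 and 3 of RPMI vehicle, RPMI quizartinib, RPMI combo and hBMSC-CM combo, hBMSC-CM vehicle replicate 2 and each everolimus replicate. The adjusted p of MTOR in this test was 0.0853. Without the libraries numbered 2, MTOR was called (edgeR adjusted p 0.0217) and PRKDC was not (0.0935), against 0.68% of all genes. DESeq2, which called 488 genes, also called MTOR (adjusted p 0.0290). So did the replicate block within each fraction (edgeR adjusted p 1.15e-03), which called 1724 genes. Which member passed thus depended on the setting.

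Other long messages were also lower in polysomes at their median. The 124 other genes with at least 2549 codons had a median log2 difference between polysome and input of -1.77 in RPMI vehicle, -0.76 in RPMI quizartinib, -0.55 in RPMI combo, -1.30 in hBMSC-CM vehicle, -1.26 in hBMSC-CM quizartinib, -1.61 in hBMSC-CM everolimus and -0.94 in hBMSC-CM combo. Genes of 251 to 500 codons had medians of 0.23 to 0.44. In RPMI vehicle, of those 124 genes 16 were below ATM, 10 below SMG1 and 25 below ATR, and 53 to 65 were below MTOR, PRKDC and TRRAP. The quizartinib shift in RPMI had a median of 0.84 over the 124 long genes (quartiles 0.55 and 1.13) and 0.15 over all genes.

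**Figure D4:**
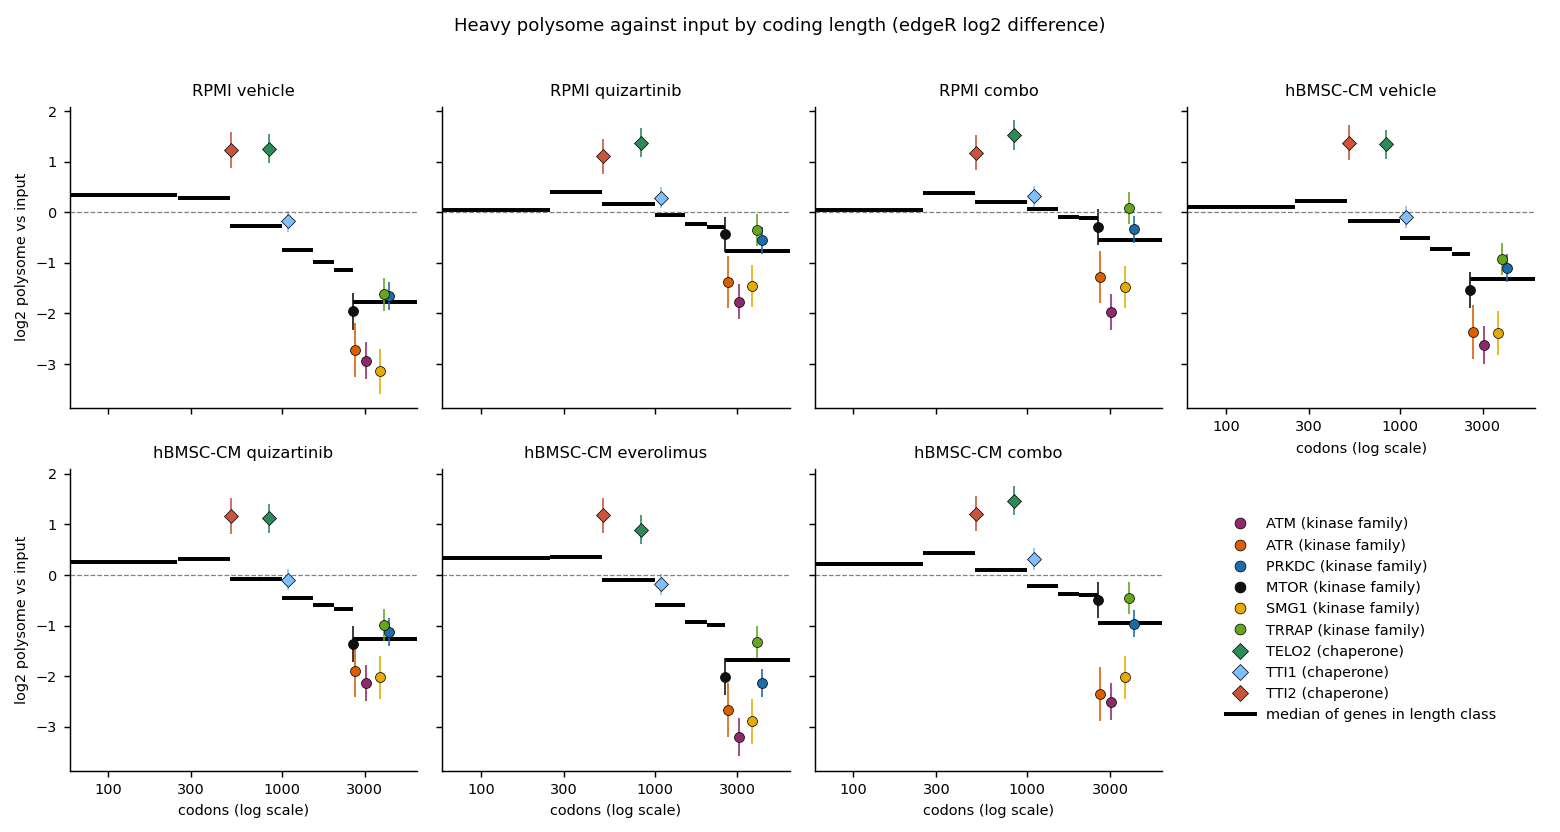
Log2 difference between heavy polysomes and input (y axis, edgeR) against the number of codons (log axis) in each condition. Points are the 9 genes with SE, and black bars are medians of all tested genes in 7 length classes, the outer 2 of which continue past the axis. The medians run from 0.33 in the shortest class to -1.78 in the longest in RPMI vehicle. In RPMI quizartinib they are 0.04 in the shortest class, 0.40 at 251 to 500 codons and -0.76 in the longest, and ATM, ATR and SMG1 lie below the bar of the longest class in every panel.

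Among long messages the difference between polysomes and input went along with GC content. Over the 130 genes with at least 2549 codons, Spearman's rho between coding GC and the polysome to input difference was 0.82 to 0.86 in the 7 conditions, and rho with codon number was -0.04 to 0.01. Over the 10811 genes with a coding sequence it was 0.68 to 0.72 with GC and -0.25 to 0.01 with codon number. These points share libraries, amplification and the composition of the genome, so they are no independent replicates, and what part GC content has in the values of ATM, ATR and SMG1 was not tested.

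**Figure D5:**
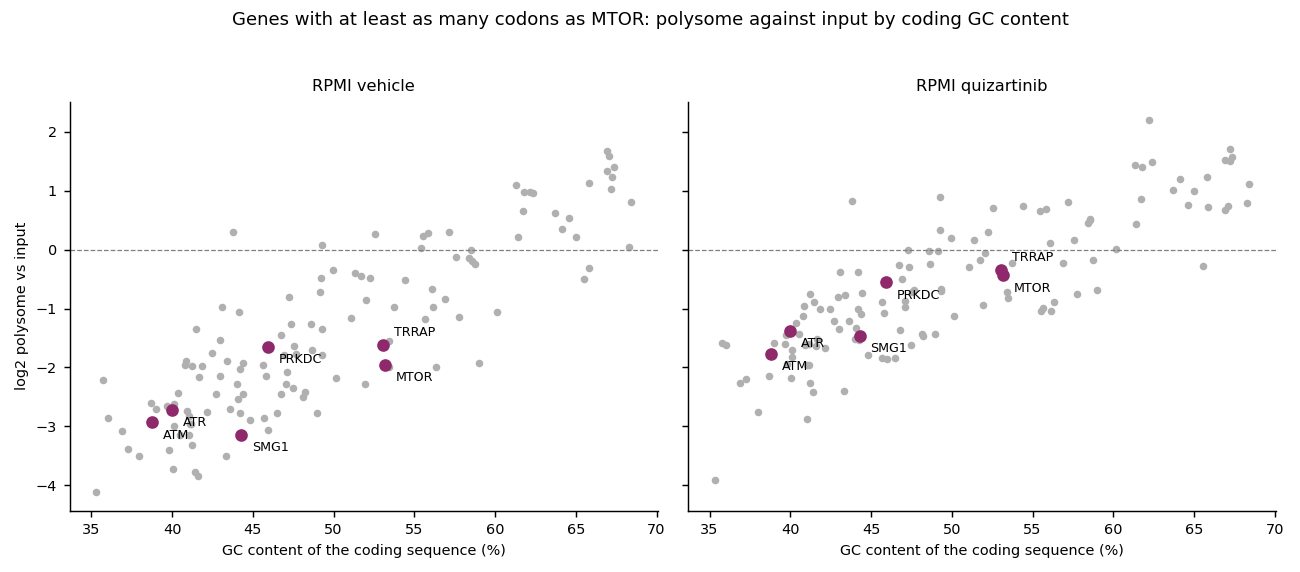
Log2 difference between heavy polysomes and input (y axis) against coding GC content (x axis, %) for the 130 genes with at least 2549 codons in RPMI vehicle (left) and RPMI quizartinib (right). Grey points are the 124 other genes. ATM, ATR and SMG1, at 38.8%, 40.0% and 44.3% GC, lie lower than MTOR and TRRAP, at 53.2% and 53.1%. PRKDC, at 45.9% GC, lies at -1.65 (left) and -0.56 (right), near MTOR (-1.96 and -0.44) and TRRAP (-1.62 and -0.35).

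When a length trend per library was removed (an offset on transcript length, added after the data were seen), ATM (-1.77), ATR (-1.85), SMG1 (-1.85) and MTOR (-1.03) were still called lower in polysomes in RPMI vehicle, TRRAP was -0.48 (edgeR adjusted p 0.0490) and PRKDC was -0.46 (0.0709). In hBMSC-CM the offset ended the call of PRKDC under vehicle (-0.07, edgeR adjusted p 0.791), quizartinib (-0.22, 0.407) and combo (-0.16, 0.538), but not under everolimus (-1.07). It ended that of TRRAP under vehicle (0.08, 0.757), quizartinib (-0.14, 0.579) and everolimus (-0.29, 0.250), and in RPMI combo TRRAP was called higher (0.55, 0.0261). ATM and SMG1 kept their calls in all 7 conditions with values of -0.86 to -2.17. With the offset 10811 genes were tested. In hBMSC-CM polysomes, 3131 of them were called lower under vehicle, 2842 under quizartinib, 2883 under everolimus and 3063 under combo. The quizartinib shift in RPMI shrank to 0.53 to 1.00 for the kinases, with edgeR adjusted p values of at least 0.503, where 37 genes were called. In input the same offset gave PRKDC -1.80, TELO2 -1.25, TTI1 -1.18 and ATR -1.28 for quizartinib in RPMI, all called (edgeR adjusted p of ATR 0.0220). In that comparison 2125 of the 10811 genes were called lower.

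Partners of the complexes were counted in lists written by hand from general knowledge. For the R2TP and HSP90 machinery that works with TTT, quizartinib in RPMI lowered 8 of 16 genes and raised none, where 18.0% of all genes were called lower and 16.6% higher. RUVBL1, an AAA+ ATPase of R2TP, fell from 78.0 ± 5.597 to 17.8 ± 3.32 CPM (log2 -2.13, SE 0.18, edgeR adjusted p 3.93e-11), and HSP90AA1, the inducible HSP90, from 1320.1 ± 37.1 to 350.4 ± 72.1 CPM (log2 -1.91, SE 0.28, edgeR adjusted p 1.11e-06). The median of the list was -0.50 against 0.08 over all genes. In hBMSC-CM 5 of the 16 fell, where 6.84% of all genes were called lower and 5.46% higher, RUVBL1 by 1.21 and HSP90AA1 by 1.00. Under quizartinib RUVBL1 was higher in hBMSC-CM than in RPMI by 0.60 (edgeR adjusted p 0.0269), the one call of this list between media. Of all genes, 8.16% were called between media under quizartinib.

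Of the DNA damage partners of ATM, ATR and DNA-PK, 10 of 26 tested genes fell and none rose in RPMI (18.0% of all genes lower), and 6 fell in hBMSC-CM (6.84% lower). The median of the list was -0.40 in RPMI and -0.06 in hBMSC-CM, against 0.08 and 0.01 over all genes. CLSPN, the adaptor through which ATR activates CHK1, fell from 61.1 ± 0.982 to 13.5 ± 0.986 CPM in RPMI (log2 -2.17, edgeR adjusted p 2.32e-06). CHEK1, the kinase downstream of ATR, fell from 41.8 ± 8.78 to 10.3 ± 0.510 CPM (log2 -2.02, edgeR adjusted p 3.23e-09). Both fell by 1.24 in hBMSC-CM. No gene of this list was called by medium or by everolimus, where at most 8.16% and 0.41% of all genes were.

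Genes of the mTOR complexes and their regulators were called in both directions in RPMI, 5 of 34 higher and 5 lower, shares no larger than those of all genes (16.6% higher and 18.0% lower). The median of the list was 0.05 against 0.08 over all genes. SESN3, a stress-induced inhibitor of mTORC1, and ULK1, the autophagy kinase that mTORC1 restrains, rose by 1.70 and 1.30 on the log2 scale. EIF4EBP1, a translational repressor and substrate of mTORC1, fell by 1.87, and MLST8, a shared subunit of both mTOR complexes, by 0.88. In hBMSC-CM 1 of 34 was called higher and 2 lower, below the shares of all genes (5.46% higher and 6.84% lower). ULK1 rose by 0.65, and EIF4EBP1 and MLST8 fell by 1.27 and 0.78. Between media DDIT4, an inhibitor of mTORC1 induced by stress, was higher in hBMSC-CM by 1.46 without drug (171 ± 36.0 against 62.0 ± 8.77 CPM) and by 2.16 under quizartinib. Under quizartinib DEPTOR and SESN1 were lower in hBMSC-CM, by -1.57 and -0.83. Between media 1 of 34 was called without drug, where 1.51% of all genes were. Under quizartinib 1 was called higher and 2 lower, where 8.16% of all genes were called. Everolimus in hBMSC-CM called 1 of the 34, where 0.41% of all genes were called. This was EIF4EBP1, which fell by 0.89 (edgeR adjusted p 0.0452).

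For SMG1, 1 of 9 decay partners was called in RPMI, SMG5, which fell by 0.61 (edgeR adjusted p 0.0466), where 18.0% of all genes were lower, and none in hBMSC-CM. Of 30 tested genes of the TRRAP complexes, 6 rose and 3 fell in RPMI, near or below the shares of all genes (16.6% higher and 18.0% lower). The acetyltransferase KAT2B rose by 1.37 and its paralog KAT2A fell by 1.39, BRD8 of NuA4 rose by 1.12, and ACTL6A, an actin-related subunit, fell by 1.39. In hBMSC-CM 2 of the 30 fell, KAT2A by 1.10 and ACTL6A by 0.77, near the 6.84% of all genes called lower. None rose, where 5.46% of all genes did. Lists of partners were not tested as sets.

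Genes whose profile was most like ATM or MTOR were named by Pearson's r over the 42 libraries, on log2 CPM centred within each fraction, among the 8432 genes averaging 10 CPM or more. For ATM the first 2 were RANBP2 (0.89) and CLTC (0.87), with 3224 and 1675 codons. For MTOR the first 3 were EP400 (0.94), YLPM1 (0.91) and ANKFY1 (0.89), with 3123, 2146 and 1169 codons. EP400 is also on the list of TRRAP complexes. Among the members themselves, over the 21 input libraries r was 0.92 between ATR and PRKDC, 0.91 between TELO2 and TTI1, 0.90 between PRKDC and TTI1 and 0.07 between TELO2 and TTI2. In the 21 polysome libraries r was 0.91 between SMG1 and TRRAP, 0.89 between ATM and SMG1 and 0.12 between PRKDC and MTOR. These values describe shared profiles over libraries that also share conditions, depth and the length trend.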

How the data were processed

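The 42 libraries cover total (input) and polysome-bound RNA. The authors trimmed paired reads with BBDuk, aligned them with STAR 2.6.0a to hg38 and deposited raw read counts per gene. Strand use in the counting was not stated. Counts of names with several identifiers were summed. Genes with a mean count and a mean CPM of at least 1 were kept (12939, holding 99.8% of counts). Groups came from the labels, and no label says that libraries of the same number in both fractions come from 1 culture.

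All 42 libraries were fitted in edgeR 4.0.16 (R 4.3.3) with quasi-likelihood, TMM factors and 14 group means, and p-values were adjusted over all genes tested (Benjamini-Hochberg, called under 0.05). Common dispersion gave a biological coefficient of variation of 0.279. P-values measure only the spread between these libraries, which may be technical. The study's notes name limma with an interaction term, so limma 3.58.1 and DESeq2 1.42.0 served as alternatives, beside other scalings, filters, blocks and left-out libraries. The fits were tested on simulated data. Named genes were all members, up to 2 rises and 2 falls per partner list and comparison among called genes of at least 10 CPM, and the 3 profiles most like ATM and MTOR, 1 of which is not reported here. Members and lists were chosen with earlier results of these data known. The alternatives on libraries of 1 number and on length were added after the data were seen.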

Additional observations from a re-analysis of the deposited data

How the results depend on the processing

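Of 4599 values of single members recomputed under other settings, 4459 stayed on the same side of the threshold, 91 were no longer called and 48 became called. In 1 a called value changed sign (TRRAP in hBMSC-CM vehicle polysomes, 0.0796 on the log2 scale with the length offset against -0.93). Sign changes of uncalled values were not counted. MTOR in RPMI combo polysomes, for example, went from -0.29 to 0.03 without the libraries numbered 2. The cause was not tested in any case.

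Over these settings the count over all genes moved as well. It ran from 357 to 3803 for quizartinib in hBMSC-CM and from 523 to 2275 for medium under quizartinib. For any difference it ran from 3215 to 7647 in input and from 40 to 1724 in polysome minus input. The share of all genes at each single setting is not given beside the member counts below. The count of members called moved by over 1.5 times as follows. On the groups compared alone, quizartinib in RPMI gave 5 instead of 3, any difference in input 5 instead of 3, and quizartinib in hBMSC-CM 1 instead of 2. Quizartinib in hBMSC-CM gave 0 by library size alone and 1 without the low-count filter. Medium under quizartinib gave 1 instead of 0 (TTI1) with DESeq2, RLE factors, the replicate block and the replicate block within each fraction. In hBMSC-CM quizartinib polysomes against input, the length offset gave 5 instead of 8. The quizartinib shift in RPMI gave 2 without the filter and 4 with the replicate block within each fraction, instead of 0. Any difference in polysome minus input gave 2 with DESeq2 and the replicate block, 4 without the filter and with the block within each fraction, and 0 with RLE factors, library size alone, the stricter filter, a block for each number and condition (culture block) and the length offset, instead of 1.

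Smaller changes were these. ATR was also called for quizartinib in RPMI with limma voom, without the filter, with the replicate block, also within each fraction, and with the length offset. TELO2 was called for quizartinib in hBMSC-CM with the replicate block within each fraction. By library size alone, polysomes against input lost TELO2 and TTI2 in RPMI vehicle and hBMSC-CM quizartinib and TELO2 in everolimus, and gained TTI1 in both vehicle groups, PRKDC in RPMI quizartinib and MTOR and TRRAP in hBMSC-CM combo. The stricter filter added PRKDC in RPMI quizartinib, and the groups alone TTI1 in everolimus. The length offset ended the calls of PRKDC and TRRAP named above, of ATR in RPMI combo and of TTI2 under quizartinib in both media. For any difference in input, ATR was called with limma voom, without the filter and with the block within each fraction.

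Leaving out libraries gave 3 to 3 members for quizartinib in RPMI, 0 to 2 in hBMSC-CM, 0 to 1 for medium under quizartinib, 3 to 3 for any difference in input and 0 to 2 for any difference in polysome minus input. Against input, polysomes gave 7 to 8 in RPMI vehicle, 2 to 6 in RPMI quizartinib, 3 to 5 in RPMI combo, 6 to 8 in hBMSC-CM vehicle, 5 to 8 in quizartinib, 6 to 8 in everolimus and 4 to 7 in combo. All other comparisons gave 0 to 0. Over all settings, polysomes against input called 5263 to 8582 of all genes in RPMI quizartinib and 5372 to 8661 in hBMSC-CM quizartinib. Where a fit left 1 culture out, the remaining pair was assumed to vary like the other groups.

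Labels give the same replicate numbers in all groups but do not say what they share. Deviations of same-numbered libraries correlated at -0.06 to 0.66 within input and -0.24 to 0.72 within polysomes, and 18 of 21 libraries in each fraction correlated best with their own number, a hint from the data and not from the design. Over all genes, quizartinib in RPMI called 2920 to 6333 genes (4477 as reported) and the shift in RPMI 29 to 1513 (201 as reported), the upper values with the replicate block within each fraction. Depth limits ATR most.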
